A study of Mus musculus with 4 samples.

Results

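The 7 genes described here belong to the aryl hydrocarbon receptor (AHR) pathway and were taken by symbol from the 52636 genes of the deposited table: Ahr, Arnt and Arnt2 of the receptor itself, its repressor gene Ahrr, and the target genes Tiparp, Cyp1b1 and Nqo1. The set was selected on the level of Ahrr, whose mean was 26.0-fold lower in the mutant retina, so the difference of these genes between the genotypes is given as a description and not as a test. Whole retinas of mice aged 3 weeks were compared between wild type (WT, 2 libraries) and Q344X, a truncating rhodopsin mutation known from autosomal dominant retinitis pigmentosa (2 libraries). The number of mutant copies, the way the allele was made, the strain, the sex and any pooling of animals were among the points not given in the sources used here. The design text keeps 2 animals per genotype after removal of poor RNA and outliers, whereas the extraction protocol counts 3 Q344X mice. Nothing beyond this ties each library to 1 mouse, so p-values measure only the spread between these libraries, which may be technical.

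AHR is a transcription factor of the bHLH-PAS family that waits in the cytosol with HSP90 and its co-chaperones until a ligand binds, such as dioxin or a tryptophan product. It then enters the nucleus, pairs with ARNT and binds xenobiotic response elements, which switches on genes of drug metabolism together with its own brakes, AHRR and TIPARP. AHRR takes up ARNT and the same DNA elements without activating transcription. In the eye the pathway is best known from the pigment epithelium and choroid, which degenerate in ageing mice that lack Ahr, and from CYP1B1, whose loss causes congenital glaucoma.

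Libraries held 18452679 to 19706573 reads in genes, and values are normalized counts, gene counts divided by 1 size factor per library. As background for the tissue, the summed level of 6 rod markers (Gnat1, Sag and Nrl among them) was 862353 and 972153 in the WT libraries and 275941 and 300245 in Q344X. The sum of 6 cone markers ranged from 23524 to 26376 in WT and from 10547 to 10601 in Q344X. RNA of the lens was present in 3 libraries and low in 1: the sum of 6 lens markers, none of them at 0, was 140284 and 158741 in WT, 126560 in Q344X replicate 1 and 4305 in Q344X replicate 2. Results below are therefore also given without Q344X replicate 2 wherever this ended a call or moved a value by over 1.5 times. An exception is Slc9a3, a gene near Ahrr, which is given with all libraries only. In whole retina, fewer cells of a type and less RNA per cell cannot be told apart. The truncating mutation itself cannot be read from gene-level values, so the genotype labels were not checked against it.

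The core of a xenobiotic response element is GCGTG, or CACGC on the opposite strand. The set of RefSeq start sites used here (assembly GRCm38.p6) covered 6 of the 7 genes and had no entry for Ahr. The 250 bases before the start site held 3 cores for Ahrr, 1 each for Arnt, Tiparp and Cyp1b1, and 0 for Arnt2 and Nqo1. Among all 32851 RefSeq windows of this length, 28.2% held at least 1 core and 2.77% at least 3. The Ahrr window is shown because Ahrr has the largest difference of the set, and those of Tiparp and Cyp1b1 because they are targets of the same receptor with levels that moved little. Cores are in capitals, each sequence reads 5′ to 3′ towards the gene and stops before the first annotated transcribed base.
Ahrr, chr13:74292332-74292581, minus strand: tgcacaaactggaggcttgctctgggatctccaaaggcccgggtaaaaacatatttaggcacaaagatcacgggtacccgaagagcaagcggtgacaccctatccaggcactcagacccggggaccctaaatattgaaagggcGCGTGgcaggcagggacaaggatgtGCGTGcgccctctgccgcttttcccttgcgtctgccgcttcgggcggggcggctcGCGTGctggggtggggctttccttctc
Tiparp, chr3:65528197-65528409, plus strand: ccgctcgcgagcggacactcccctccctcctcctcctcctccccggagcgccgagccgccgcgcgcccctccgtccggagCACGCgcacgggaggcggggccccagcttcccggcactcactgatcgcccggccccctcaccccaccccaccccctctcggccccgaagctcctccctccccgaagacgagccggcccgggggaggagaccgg
Cyp1b1, chr17:79715062-79715311, minus strand: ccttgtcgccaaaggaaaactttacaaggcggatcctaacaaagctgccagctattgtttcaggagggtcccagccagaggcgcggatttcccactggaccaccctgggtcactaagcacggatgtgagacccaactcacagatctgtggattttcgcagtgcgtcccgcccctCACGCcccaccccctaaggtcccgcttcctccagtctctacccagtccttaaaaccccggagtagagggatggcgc
In the Ahrr window the cores began 107, 82 and 27 bases before the start site, all in the forward orientation. The single cores of Tiparp and Cyp1b1 were in the reverse orientation, with their first base 170 and 76 bases before the start. GC content was 60.4% for Ahrr, 75.2% for Tiparp and 58.0% for Cyp1b1 over the 250 bases, against a median of 52.4% for all windows. The hypoxia core ACGTG was on neither strand in any of the 6 windows and was in 16.6% of all windows. The antioxidant core TGACNNNGC, its reverse complement included, occurred 2 times before Arnt and not in the other windows (10.2% of all). TAATCC, the core bound by the photoreceptor factor CRX, was found 1 time before Arnt on the reverse strand and in 6.25% of all windows. A match of letters is a description of the sequence only, and its absence says nothing about binding elsewhere.

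Ahrr (ENSMUSG00000021575, chromosome 13, 74211118 to 74292331, minus strand, GRCm38) encodes the repressor that competes with AHR. Its normalized counts were 731 and 742 in the WT libraries and 31.7 and 25.0 in the Q344X libraries. Both mutant libraries were far below both WT libraries, and the groups did not overlap. These values correspond to 703, 740, 32 and 26 reads, so the low group still rested on 26 reads or more per library. The means were 737 ± 7.68 in WT and 28.3 ± 4.76 in Q344X (SD, n = 2), and the log2 fold change was -4.66 ± 0.23 (SE). In size of fall Ahrr ranked 37 among 16833 tested genes with a mean of at least 10. Over the 11 alternative ways of processing the value lay between -4.83 and -4.48. The rod and cone marker sums given above were lower in the same libraries, and their part in the level of Ahrr was not tested.

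**Figure D1:**
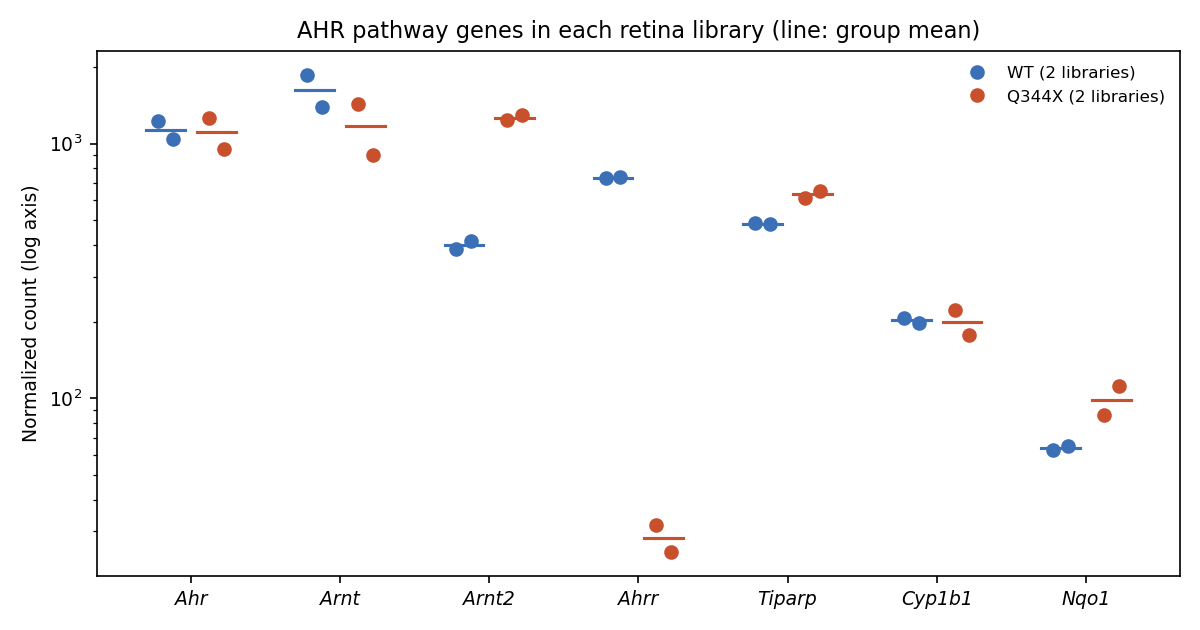
Normalized counts of the 7 pathway genes (x axis) in each library on a log y axis, with WT in blue, Q344X in red and a line at each group mean. Ahrr drops from 731 and 742 to 31.7 and 25.0, Arnt2 rises from 386 and 414 to 1241 and 1292, and the points of Ahr, Arnt and Cyp1b1 overlap between the genotypes.

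Ahr (ENSMUSG00000019256, chromosome 12, 35497974 to 35535038, minus strand), the receptor gene, stayed at one level while its repressor dropped. It was at 1228 and 1043 normalized counts in WT and at 1259 and 956 in Q344X. The Q344X pair enclosed the WT pair, so the genotypes overlapped completely. The means were 1135 ± 131 and 1108 ± 214 (SD, n = 2), with a log2 fold change of -0.04 ± 0.21 (SE), which lay between -0.24 and 0.15 over the alternatives. Set per kilobase of the longest coding transcript, the level of Ahrr was 0.695 and 0.830 times that of Ahr in the WT libraries. In the Q344X libraries this ratio was 0.0294 and 0.0305, so per unit length the receptor exceeded its repressor by 34.1 and 32.8 times. These ratios depend on the length used, a check added after the data were seen: per kilobase of all annotated exons, Ahrr over Ahr was 0.389 and 0.464 in WT, and Ahr exceeded Ahrr by 60.9 and 58.7 times in Q344X. With either length the ratio of Ahrr to Ahr was lower in both Q344X libraries than in both WT libraries.

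A noncoding gene that starts beside Ahr did change. Gm48236, a long intergenic noncoding RNA on the plus strand (chromosome 12, 35534421 to 35590446), overlaps the first exon of Ahr head to head and was singled out after its values were seen. It was at 106 and 118 normalized counts in WT and at 7.92 and 21.1 in Q344X, with no overlap. It fell by 3.01 ± 0.48 on the log2 scale (SE, limma adjusted p = 0.0181), and its log2 fold change was -3.66 without Q344X replicate 2 and -2.35 without Q344X replicate 1. Testing every gene above 0 ended this call (adjusted p = 0.0669). The libraries were directional, but whether counting used the strand was not given in the sources used here, so reads of Ahr and Gm48236 in their shared stretch may not be separated.

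Of the ARNT paralogs, either of which can complete the receptor dimer, Arnt2 was higher in Q344X and Arnt overlapped between the genotypes. Arnt2 (ENSMUSG00000015709, chromosome 7, 84246278 to 84410176, minus strand), the form enriched in neurons, was at 386 and 414 normalized counts in WT and at 1241 and 1292 in Q344X. The mutant libraries lay about 3.17-fold above the WT ones, with little spread inside either group. Its means were 400 ± 20.0 and 1267 ± 35.7 (SD, n = 2), and its log2 fold change was 1.66 ± 0.17 (SE), between 1.60 and 1.71 over the alternatives. Arnt (ENSMUSG00000015522, chromosome 3, 95434388 to 95497240, plus strand), the broadly expressed form, was at 1869 and 1392 in WT and at 1436 and 907 in Q344X. The higher mutant library lay above the lower WT library, so the genotypes overlapped. The log2 fold change of Arnt was -0.50 ± 0.28 (SE). It was -0.83 without Q344X replicate 1 and -0.17 without Q344X replicate 2, the lowest and highest of the alternatives.

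Per kilobase of transcript, Arnt2 made up 12.5% and 17.1% of the summed Arnt and Arnt2 level in the WT libraries. In the Q344X libraries its share was 37.5% and 49.7%, above both WT libraries. In Q344X replicate 2 the paralogs were at nearly equal level, with an Arnt to Arnt2 ratio of 1.01, where WT replicate 1 had 6.97. The sum of both was 494 and 388 normalized counts per kb in WT and 531 and 417 in Q344X, and these ranges overlapped. With all annotated exons as the length, the Arnt2 share was 17.7% and 23.7% in WT and 47.4% and 59.7% in Q344X, and the Arnt to Arnt2 ratio in Q344X replicate 2 was 0.674. The 6 markers of ganglion cells, the output neurons of the retina, had summed levels of 11311 and 13113 in WT and 18288 and 22382 in Q344X. None of the 6 overlapped between the genotypes, where 63.1% of all tested genes did not overlap. Of these, 1 rose (limma adjusted p under 0.05, beside 5.46% of all tested genes) and 5 had an unadjusted p under 0.05. The share of all tested genes with an unadjusted p under 0.05 was not counted. It is well above the 14.6% called in either direction. This share sets how far adjustment raises a p, and Bnip3, a hypoxia target gene, went from 0.0498 to 0.144 (limma). Nothing is read from the 5. For 6 bipolar markers the sums were 24730 and 21539 in WT and 32602 and 24679 in Q344X (median log2 fold change 0.12). For 6 amacrine markers they were 12884 and 12939 against 11112 and 10467 (median -0.21). Of these, 1 bipolar marker rose and 1 amacrine marker fell (limma), where 9.1% of all tested genes fell. The part of these lists in the level of Arnt2 was not tested. With every gene above 0 tested, no marker of these lists was called. Under quantile normalization, 2 ganglion markers rose. The number that rose was 0 without WT replicate 1 (limma), 2 without WT replicate 2 and 6 without Q344X replicate 1.

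**Figure D2:**
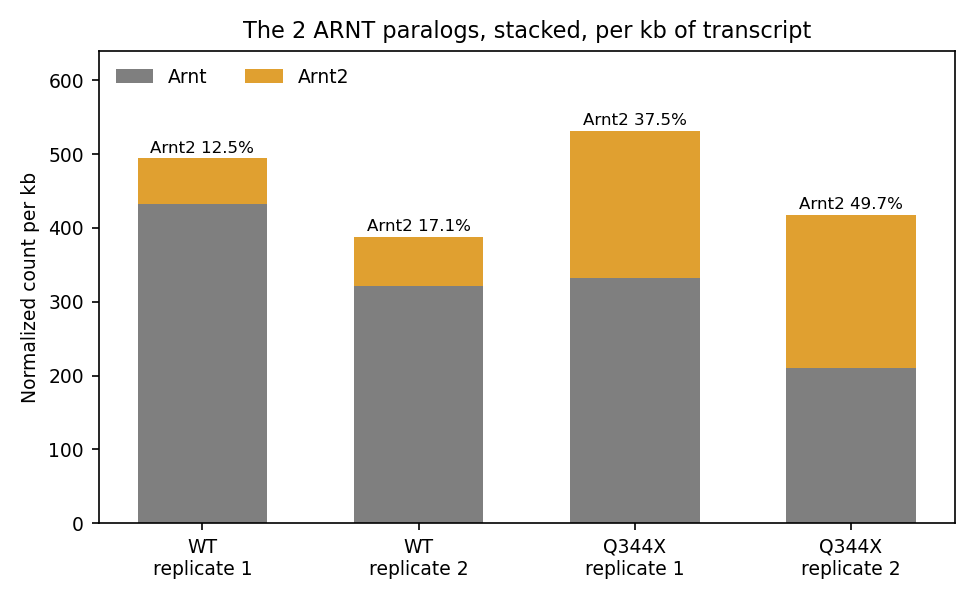
Stacked bars of Arnt (grey) and Arnt2 (orange) in each library (x axis), in normalized counts per kb of the longest coding transcript (y axis from 0), with the Arnt2 share above each bar. The bars of the genotypes reach overlapping heights, 388 to 494 in WT and 417 to 531 in Q344X, while the Arnt2 share goes from 12.5% and 17.1% to 37.5% and 49.7%.

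The target genes of the set moved little by comparison. Tiparp (ENSMUSG00000034640, chromosome 3, 65528410 to 65555518, plus strand) encodes a mono-ADP-ribosyltransferase that is induced by AHR and marks it for decay. It was at 488 and 482 normalized counts in WT and at 615 and 650 in Q344X. The libraries did not overlap, and the shift was small, with a log2 fold change of 0.38 ± 0.18 (SE). Cyp1b1 (ENSMUSG00000024087, chromosome 17, 79701537 to 79715061, minus strand), a cytochrome P450 that oxidizes steroids and retinoids, was at 207 and 199 in WT and at 222 and 177 in Q344X. Its genotypes overlapped, with a log2 fold change of -0.03 ± 0.22. Nqo1 (ENSMUSG00000003849, chromosome 8, 107388225 to 107403206, minus strand), a quinone reductase under the control of both AHR and NRF2, was at 62.4 and 65.2 in WT and at 86.1 and 111 in Q344X. Both mutant libraries were above both WT libraries, with a log2 fold change of 0.61 ± 0.26, from 0.43 without Q344X replicate 2 to 0.82 under quantile normalization.

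Over the whole set, all 7 genes passed the filter on low values, the lowest single value being 25.0. The groups did not overlap in 4 of the 7, where 63.1% of all tested genes did not overlap. Past the limma threshold lay 1 gene that was lower, Ahrr, and 1 that was higher, Arnt2, beside 14.6% of all tested genes called in either direction. The choice of the set used this contrast, so nothing is read from these counts. Both calls were present under all 11 alternatives, and Arnt was called in 1 of them, without Q344X replicate 1.

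**Figure D3:**
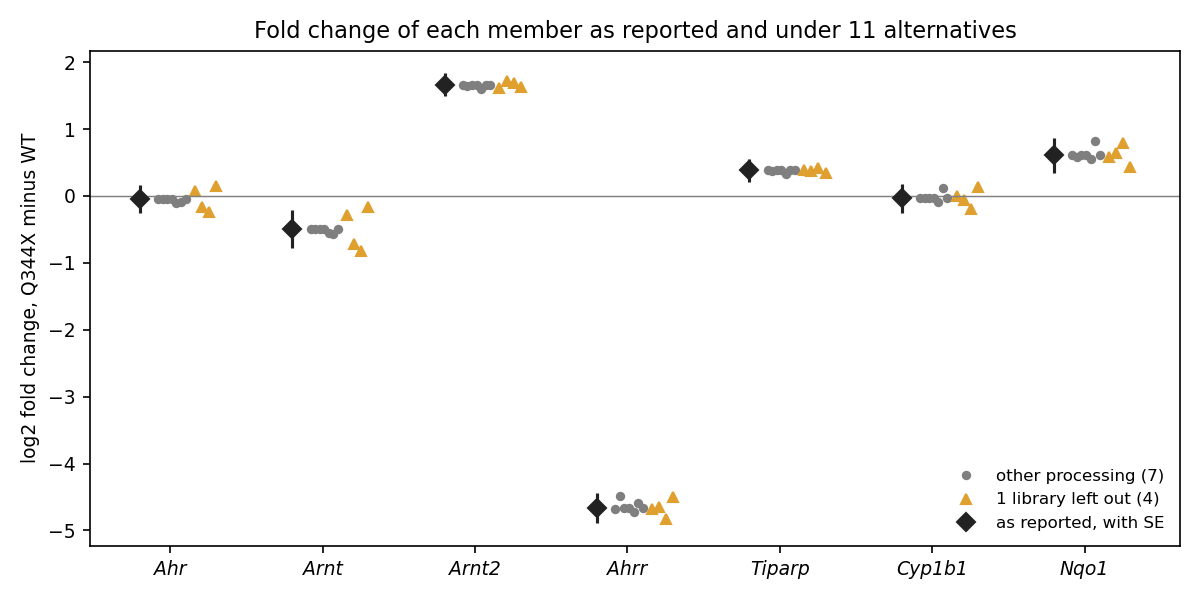
The log2 fold change, Q344X minus WT (y axis), of each pathway gene as reported (black diamond with SE), under 7 other ways of processing (grey) and with 1 library left out (4 orange triangles). The values of Ahrr stay between -4.83 and -4.48 and those of Arnt2 between 1.60 and 1.71, whereas those of Ahr and Cyp1b1 lie on both sides of 0.

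Ordered by level per kilobase of the longest coding transcript, the WT retina held most Arnt (377 ± 78.0 normalized counts per kb, SD, n = 2), then Ahr (205 ± 23.6), Ahrr (155 ± 1.61), Tiparp (116 ± 0.924), Arnt2 (64.2 ± 3.21), Nqo1 (41.1 ± 1.26) and Cyp1b1 (39.5, from 38.7 to 40.4). The last pair did not differ beyond its spread. With all annotated exons as the length, Tiparp (111) stood above Ahrr (78.0), because the length used for Ahrr then goes from 4.75 to 9.44 kb. In Q344X the order per kb was Arnt (271 ± 86.4), Arnt2 (203 ± 5.73), Ahr (200 ± 38.7), Tiparp (151 ± 5.90), Nqo1 (63.6 ± 11.5), Cyp1b1 (38.8 ± 6.23) and Ahrr (5.96, from 5.25 to 6.66). The differences between Arnt, Arnt2 and Ahr were there smaller than the SD of Arnt. With all annotated exons the order at the top became Ahr (180), Arnt2 (165), Arnt (146) and Tiparp (145). Ahrr was last in Q344X with either length (3.00 per kb of all exons).

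The genes whose pattern over the 4 libraries was most like that of Ahrr were found by the root mean square difference of log2 values, each gene centred on its WT mean. Closest was Sh2d1a, an adaptor of lymphocyte receptors, with a difference of 0.16. It was at 258 and 275 normalized counts in WT and at 9.90 and 6.72 in Q344X. Next was Mef2c, a transcription factor gene that is also active in photoreceptors, with a difference of 0.18 and levels of 2117 and 2105 against 118 and 76.8. Itprid1 (0.23) was at 32.2 and 25.1 in WT and at 0 in both Q344X libraries. Chst3 (0.29), a chondroitin sulfotransferase gene, and Pdzph1 (0.37) followed. The measure picks genes with the same size of fall, and the points share their libraries, so it says nothing about a common control.

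Genes beside Ahrr on chromosome 13 did not share its fall. Within 500 kb of its start, 18 of 34 annotated genes in the table were tested, and 2 fell, 0 rose and 16 did not pass (limma), where 9.1% of all tested genes fell and 5.46% rose. The nearest on either side were Pdcd6, a calcium-binding gene 25.2 kb away, and Exoc3, an exocyst subunit gene 83.6 kb away. Pdcd6 was at 616 and 595 normalized counts in WT and at 1041 and 932 in Q344X, a log2 fold change of 0.70 ± 0.18 (SE, limma adjusted p = 0.0507, and 0.0329 without Q344X replicate 2). Exoc3 had -0.29 ± 0.18. The log2 fold changes of the 18 ranged from -1.83 to 0.87, all smaller in size than the -4.66 of Ahrr, with a median of -0.31 beside 0.02 for all tested genes. In the window, 0 genes fell without WT replicate 1 (limma), 1 without WT replicate 2 and 6 without Q344X replicate 1, and 2 rose without Q344X replicate 2.

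The neighbours that fell were Zfp72 and Tppp. Zfp72, a zinc finger gene 98.5 kb away, was at 96.7 and 89.2 normalized counts in WT and 30.7 and 21.1 in Q344X (log2 fold change -1.83 ± 0.31, SE, limma adjusted p = 0.0211). Tppp, which encodes a tubulin-polymerizing protein, lies 283 kb away and was at 2615 and 2625 in WT and 1214 and 1077 in Q344X (-1.20 ± 0.17, adjusted p = 0.0142). Both lost their calls without WT replicate 1 (limma adjusted p = 0.0572 and 0.0621), and Tppp also without WT replicate 2 (0.0532). Zfp72 did not pass when every gene above 0 was tested (0.0651). Of the remaining coding genes tested in the window, Cep72, Trip13, Nkd2 and Slc9a3 had log2 fold changes of 0.87, 0.80, 0.64 and 0.62. Erap1, Ccdc127, Brd9, Sdha, Zfp825 and Lrrc14b had -0.10, -0.27, -0.33, -0.35, -0.36 and -0.83, none past the threshold.

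**Figure D4:**
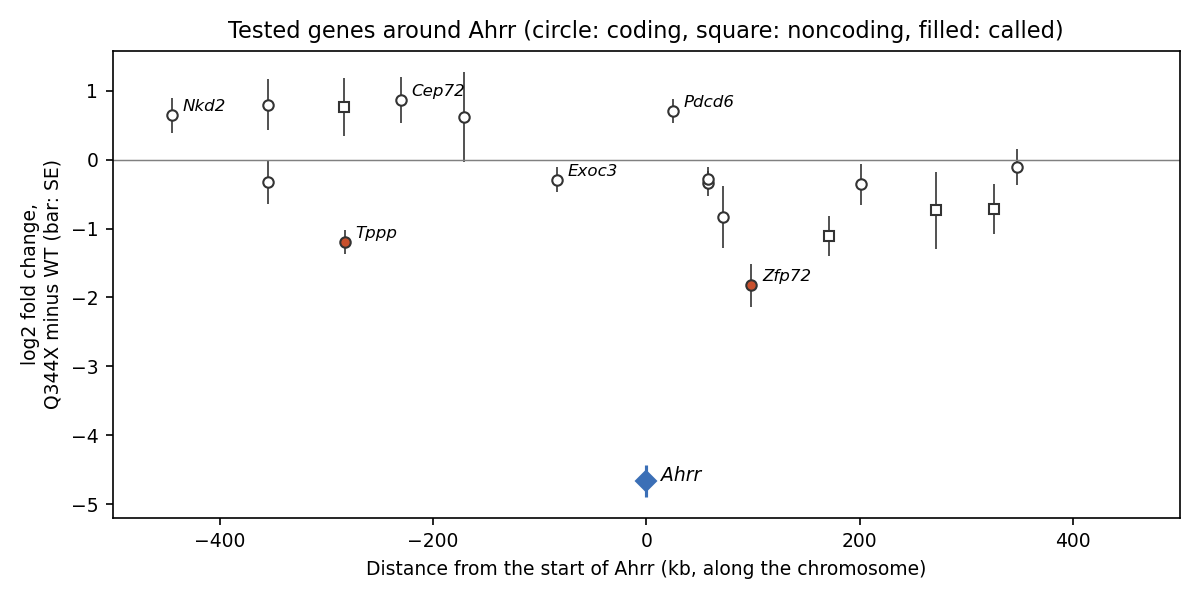
The log2 fold change with SE (y axis) of the tested genes within 500 kb of the start of Ahrr (x axis, distance in kb along the chromosome), coding genes as circles, noncoding as squares, and called genes filled. Ahrr (blue diamond) lies at -4.66, and its neighbours lie between -1.83 and 0.87.

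Beyond the set, 93 further genes of the pathway and of pathways linked to it were listed by role, of which 73 were tested. Of the 93, 49 are in lists of other pathways that share a partner or target with AHR (bHLH-PAS relatives and coactivators, hypoxia targets and NRF2 genes). Of the 73, 3 rose and 7 fell (limma), which is 4.11% and 9.59%, near the 5.46% and 9.1% of all tested genes, and 8 of these 10 calls were in the 3 linked lists. Their median log2 fold change was -0.04, beside 0.02 for all tested genes. The counts depended on single libraries: 1 rose and 2 fell without WT replicate 1, 8 rose and 12 fell without Q344X replicate 1, and 6 rose and 9 fell without Q344X replicate 2. Testing every gene above 0 left 1 in each direction. Of the 73, 24 had an unadjusted p under 0.05 (limma). That share was not counted for all tested genes and is well above 14.6%, so nothing is read from the 24. The proteins that hold, shuttle and degrade AHR gave no call in 11 tested genes, with 3 at an unadjusted p under 0.05 and a median of 0.39. Among these, the chaperone Hsp90aa1 had -0.29 ± 0.17 (SE) and Ddb1, of a ubiquitin ligase, 0.62 ± 0.20. The corepressors through which AHRR can act gave no call in 6 genes, with 1 at an unadjusted p under 0.05 (limma), and Ncor1 and Hdac5 had -0.32 ± 0.27 and -0.36 ± 0.24.

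Other AHR target genes were mostly silent. Of 14, 9 were under the filter and 3 of these were at 0 in every library. Cyp1a1, the classical AHR target, was counted with 1 read in each WT library and was at 0 in both Q344X libraries, a level at which no difference was detectable. Among the 5 tested genes, 1 fell and 1 rose, where 9.1% of all tested genes fell and 5.46% rose. Aldh3a1, an aldehyde dehydrogenase gene also known from the cornea, was at 164 and 90.2 in WT and at 22.8 and 25.9 in Q344X (log2 fold change -2.28 ± 0.36, SE, limma adjusted p = 0.0182). Socs2, a brake on cytokine signalling, was at 223 and 175 in WT and at 663 and 663 in Q344X (1.74 ± 0.21, adjusted p = 0.00949). Neither gene overlapped between the genotypes, and their directions were opposite. Slc7a5, an amino acid transporter gene, had 1.25 ± 0.33 and Ccng2, a cyclin gene, 0.49 ± 0.17, neither past the threshold. Testing every gene above 0 ended the call of Aldh3a1 (adjusted p = 0.0649).

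Genes that supply tryptophan ligands were detected in part. Of 13, 8 were under the filter, Tdo2 and Ido1, which open the kynurenine route, were at 0 in all 4 libraries, and none of the 5 tested genes was called (limma, 2 at an unadjusted p under 0.05). All 5 had log2 fold changes below 0, from -1.71 for Kynu (kynureninase) to -0.03, with a median of -0.57. The transaminase gene Kyat1 was at 458 and 463 normalized counts in WT and 314 and 293 in Q344X (log2 fold change -0.60 ± 0.18, SE), and Kyat3 had -0.57 ± 0.25.

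Among 12 tested bHLH-PAS relatives and coactivators, 1 fell and 0 rose, where 9.1% of all tested genes fell and 5.46% rose. That one was Npas4, an activity-dependent neuronal factor that pairs with ARNT or ARNT2, at 94.6 and 58.2 normalized counts in WT and 24.8 and 16.3 in Q344X (log2 fold change -1.83 ± 0.39, SE, limma adjusted p = 0.0343). It did not pass without WT replicate 1 (0.143) or with every gene above 0 tested (0.0919). Hif1a, the hypoxia factor that shares ARNT with AHR, was abundant and nearly level at 16246 and 16599 in WT and 17351 and 17679 in Q344X (0.09 ± 0.17), and the coactivator gene Ncoa2 had 0.31 ± 0.17.

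Of 17 target genes of the hypoxia factors, which also need ARNT, 4 fell, 1 rose and 12 did not pass (median -0.21). That is 23.5% lower and 5.88% higher, beside 9.1% and 5.46% of all tested genes. Hk2, a hexokinase gene, fell most, from 5659 and 5382 to 560 and 408 normalized counts (log2 fold change -3.53 ± 0.21, SE, limma adjusted p = 0.00342). P4ha1, a collagen prolyl hydroxylase gene, had -1.19 ± 0.19, Pdk1, a kinase gene that restrains pyruvate oxidation, -0.79 ± 0.17, and Vldlr, a lipoprotein receptor gene, -0.70 ± 0.17. Ndrg1 rose, with 1.18 ± 0.19, and Ldha had -0.06 ± 0.24. Of these calls, Hk2 alone passed whichever library was left out and also when every gene above 0 was tested. P4ha1, Pdk1, Vldlr and Ndrg1 did not pass without WT replicate 1 (limma adjusted p = 0.101, 0.295, 0.325 and 0.115), nor did Pdk1 and Vldlr without WT replicate 2 (0.177 and 0.269) or Vldlr without Q344X replicate 2 (0.0521). With every gene above 0 tested their adjusted p was 0.0593, 0.0752, 0.0910 and 0.0601.

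In the NRF2 pathway, which also controls Nqo1, 1 gene rose and 1 fell among 17. That is 5.88% in each direction, beside 5.46% higher and 9.1% lower of all tested genes. Gstm1, a glutathione transferase gene, was at 936 and 762 normalized counts in WT and 433 and 310 in Q344X (log2 fold change -1.20 ± 0.24, SE, limma adjusted p = 0.0296). It has close paralogs, between which reads may be split. Ftl1, the ferritin light chain gene, was at 2353 and 2646 in WT and 3887 and 4507 in Q344X (0.75 ± 0.18, adjusted p = 0.0473), and the heavy chain gene Fth1 had 0.60 ± 0.36. Gstm1 did not pass without WT replicate 1 (0.135). Ftl1 did not pass without WT replicate 1 (0.356), WT replicate 2 (0.183) or Q344X replicate 2 (0.0661), nor under scaling to the 75th percentile (0.0508), quantile normalization (0.0613) or a minimum mean of 50 (0.0508). Both failed with every gene above 0 tested (0.0807 and 0.0979).

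**Figure D5:**
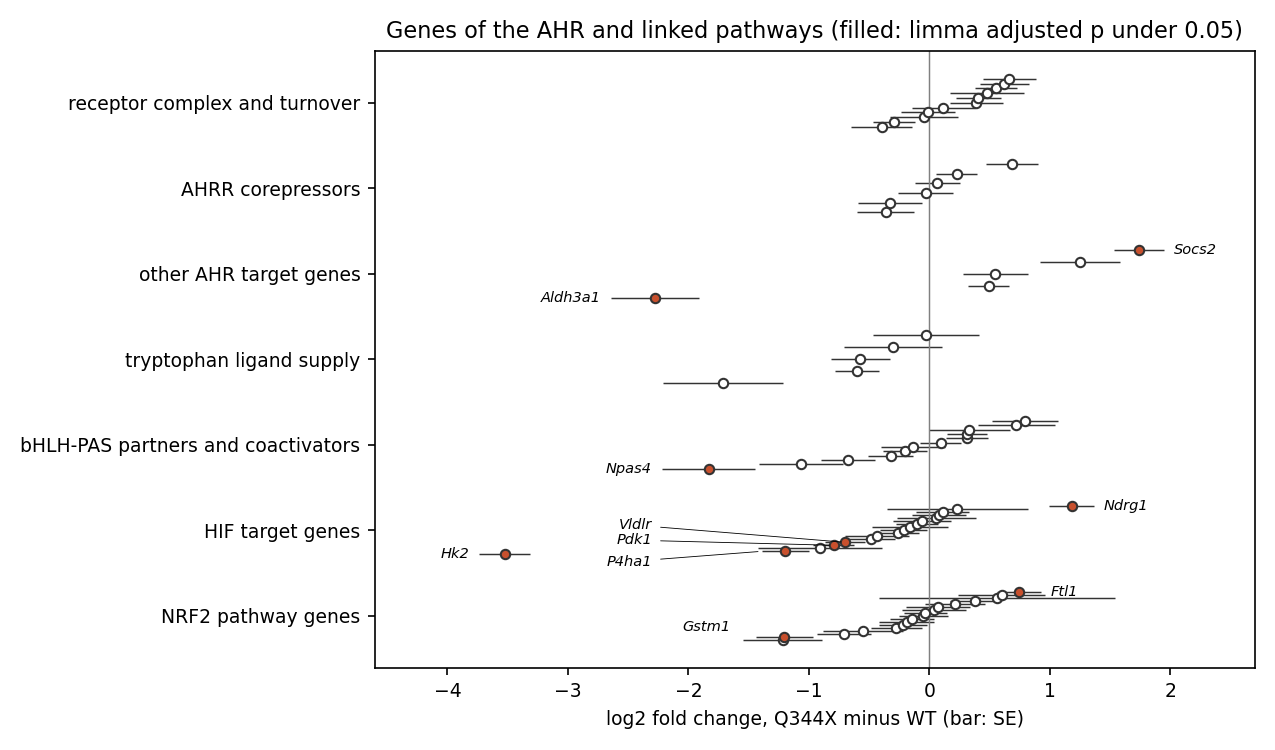
The log2 fold change with SE (x axis) of the tested genes in the 7 lists of other pathway genes (y axis), with filled points for limma adjusted p under 0.05. Most genes lie within 1 of 0, Hk2 is the lowest at -3.53 and Socs2 the highest at 1.74.

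Markers of further cell types of the eye were summed in the same libraries. The sum of 6 microglia markers was 628 and 535 normalized counts in WT and 629 and 697 in Q344X, with none called (limma, 0 at an unadjusted p under 0.05). That of 6 endothelial markers was 5044 and 3357 against 6700 and 4906, with 1 that rose, 4 at an unadjusted p under 0.05 and a median log2 fold change of 0.74. Of all tested genes, 5.46% rose and 9.1% fell (limma). Their share at an unadjusted p under 0.05 was not counted and is well above 14.6%, so nothing is read from counts at that p. The sum of 6 pigment epithelium markers was 3710 and 4021 against 4426 and 5922, with 1 of 5 tested that rose and 2 at an unadjusted p under 0.05, Rpe65 higher and Tyrp1 lower, and that of 6 pericyte markers 3278 and 2718 against 3073 and 2594, with none called (limma, 0 at an unadjusted p under 0.05). In Müller glia, 2 of 6 markers fell, also the 2 at an unadjusted p under 0.05, and the sums were 93235 and 83980 against 81296 and 77740. The calls of Tie1, Rpe65, Aqp4 and Kcnj10 behind these counts were lost without either WT replicate, and without Q344X replicate 1 the counts that rose were 3 for endothelial and 2 for pigment epithelium markers. With every gene above 0 tested, none of these markers was called. None of them was at 0 in all libraries, and the part of these cell types in the levels of Ahrr and Arnt2 was not tested.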

How the data were processed

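Polyadenylated RNA of mouse retina was sequenced on an Illumina HiSeq instrument from directional libraries, per the labels' protocols. The authors deposited normalized counts, a signal per gene made by dividing gene counts by 1 size factor per library, for 52636 Ensembl genes. The submitters' processing notes name FastQC, Trim Galore 0.4.4, STAR, featureCounts, DESeq2 1.16.1 and the build mm10. Which annotation was counted, and on which strand, was not given in the sources used here. The values are whole multiples of the worth of 1 read (100% within 0.1 of a whole number), which gave the reads quoted. No count model was fitted, because a unit check did not accept 2 libraries. It passes recovered reads only where the worth of 1 read is not close to 1. Symbols, positions and lengths are from GENCODE M21 (GRCm38) for 52403 genes, and promoter sequences from RefSeq (GRCm38.p6).

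Genes with a mean of at least 10 (16833) were tested in R 4.3.3 with limma 3.58.1 on log2(value + 1), with a mean-variance trend, two-sided, Benjamini-Hochberg adjustment over all of them and a threshold of 0.05. Fold changes on this scale understate low genes. An exact permutation test of 2 against 2 libraries cannot go below p = 0.333. The fit was tested on simulated data. The members, lists and naming rule were chosen with earlier results of these data known. Named were the 7 members, in each list the called genes (at most 6) and the 2 most abundant, the tested coding genes within 500 kb of Ahrr and the 5 patterns most like Ahrr; others were chosen after their values were seen. The alternatives were pseudocounts, filters, scalings, robust moderation and leaving out each library.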

Additional observations from a re-analysis of the deposited data

How the results depend on the processing

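Each result was recomputed under 11 alternatives. Leaving out 1 library gave 388 to 2353 higher and 666 to 2973 lower genes over all tested genes, 1 to 8 higher and 2 to 12 lower genes among the other pathway genes, and 0 to 2 higher and 0 to 6 lower genes around Ahrr. The counts over all tested genes and over the other pathway genes were lowest without WT replicate 1, and such a fit takes its spread from the intact pair alone. Testing every gene above 0 (30816) gave 153 higher and 383 lower genes in all, 1 higher and 1 lower other pathway gene, and 1 lower gene around Ahrr. A pseudocount of 5 gave 1 higher gene around Ahrr, Pdcd6. The cause of these changes was not tested. Levels per kb were also recomputed with all annotated exons as the length, chosen after the data were seen. The median log2 fold change of all tested genes was between -0.04 and 0.06 in every setting. No paired analysis was possible because the labels give no replicate numbers, and those used here follow accession order and only name a library. With 2 libraries per group, the calls rest on the spread that limma shares between genes, and for genes counted with a few reads, such as Cyp1a1, depth limits any comparison.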
